A study of Rattus norvegicus with 30 samples.

Results

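The cytosolic and mitochondrial heat shock genes described here are 8 genes chosen by symbol: Hsph1, Hspa8, Dnajb1, Hsp90aa1, Hsp90ab1, Hspb1, Hspd1 and Hspe1. The genes were chosen with earlier results of these data known. Each had 1 row among the 35224 genes of the deposited count table, and all 8 were among the 17571 genes with enough counts to be tested. Gene expression was measured by mRNA sequencing of lung tissue from newborn rats exposed to oxygen as a model of bronchopulmonary dysplasia, a chronic disease of lungs born too early. The 30 libraries form 10 groups of 3: pups labelled as kept in 85% oxygen and pups labelled as kept in 21% oxygen (room air), each sampled on postnatal days 1, 3, 7, 10 and 14. According to the labels, pups were delivered on gestation day 21 to 23 and put at random into an arm of 12 rats. Exposure to oxygen started within 24 hours of birth, and the arms were exchanged every 24 hours so that nursing did not differ, without a word on whether dams or pups moved. Both arms lived in chambers with soda lime to bind carbon dioxide, opened daily for 30 minutes. About 40 mg of lung with the trachea section removed was washed in cold buffer and frozen. With 15 libraries per arm against the stated 12 rats, some libraries may share an animal, and the labels do not say which. The p-values therefore cover the spread between libraries only, part of which may be technical.

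Heat shock proteins are chaperones that hold, fold or refold other proteins. In the cytosol Hsp70 proteins bind exposed stretches of a client with the help of J proteins and of nucleotide exchange factors, Hsp90 proteins finish the folding of kinases and hormone receptors, and small heat shock proteins keep unfolded clients soluble. In the mitochondrial matrix a barrel of Hsp60 with a lid of Hsp10 encloses newly imported proteins. Many of these genes are switched on by heat shock factor 1, which binds arrays of short inverted units in their promoters, and in the lung they are known to respond to heat, oxidants and stretch.

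The promoter sequences are shown because the units bound by heat shock factors are the feature these genes are best known to share. The genes were chosen by symbol and not by promoter letters, but genes of these names are known for such units. The shares below therefore describe the chosen genes and are not an independent result. RefSeq start-site windows of the rat assembly GRCr8 were found for 7 of the 8 genes, all but Hsp90aa1, and the 250 bases before each annotated start were searched. These 7 genes had a single window each, while other genes could have several. The letters searched were GAANNTTC and TTCNNGAA, which each hold 2 units and read the same on both strands. The longer GAANNTTCNNGAA and TTCNNGAANNTTC hold 3 units, are the reverse complements of each other, and each contain both of the shorter ones. At least 2 units in a row stood before 6 of the 7 genes, against 13.5% of all 33469 windows of 27457 genes. At least 3 units in a row stood before 4 of the 7 genes, against 0.663% of all windows. Hspd1 and Hspe1 count separately there but share the same DNA: they face away from each other with 289 bases between their starts, and their windows have 211 bases in common. Windows of Hsph1 (chr12:10427118-10427367, plus strand) and Hspa8 (chr8:50080264-50080513, plus strand) come first below, then Hspe1 (chr9:64084077-64084326, plus strand), Hspb1 (chr12:26432302-26432551, minus strand) and Hsp90ab1 (chr9:22930173-22930422, plus strand). Each ends 1 base before the start, in the direction of transcription, and capitals mark matches to the 2-unit letters, with overlapping matches joined.
Hsph1: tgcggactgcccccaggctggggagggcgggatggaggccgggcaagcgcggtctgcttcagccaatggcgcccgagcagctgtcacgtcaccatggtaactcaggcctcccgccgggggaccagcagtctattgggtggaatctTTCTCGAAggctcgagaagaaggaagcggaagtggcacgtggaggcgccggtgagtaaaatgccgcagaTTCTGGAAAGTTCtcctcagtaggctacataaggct
Hspa8: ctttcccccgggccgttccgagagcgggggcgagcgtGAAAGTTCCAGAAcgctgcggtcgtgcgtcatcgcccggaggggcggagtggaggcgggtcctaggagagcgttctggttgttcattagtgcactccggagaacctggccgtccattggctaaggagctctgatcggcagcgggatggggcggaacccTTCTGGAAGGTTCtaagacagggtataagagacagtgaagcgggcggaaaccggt
Hspe1: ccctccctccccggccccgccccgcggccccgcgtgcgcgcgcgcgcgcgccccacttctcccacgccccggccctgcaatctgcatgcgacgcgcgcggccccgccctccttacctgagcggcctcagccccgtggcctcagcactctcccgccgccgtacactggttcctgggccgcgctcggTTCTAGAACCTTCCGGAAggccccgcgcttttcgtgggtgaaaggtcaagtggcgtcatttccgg
Hspb1: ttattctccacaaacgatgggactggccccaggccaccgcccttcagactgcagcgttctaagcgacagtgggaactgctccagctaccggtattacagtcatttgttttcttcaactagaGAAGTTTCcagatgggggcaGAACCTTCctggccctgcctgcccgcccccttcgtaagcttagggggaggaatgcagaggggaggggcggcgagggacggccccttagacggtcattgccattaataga
Hsp90ab1: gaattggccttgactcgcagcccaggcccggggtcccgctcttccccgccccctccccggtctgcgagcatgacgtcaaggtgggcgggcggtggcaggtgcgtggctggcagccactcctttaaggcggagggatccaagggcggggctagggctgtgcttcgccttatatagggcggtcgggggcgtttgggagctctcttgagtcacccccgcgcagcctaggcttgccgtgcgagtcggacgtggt
The Hsph1 window holds a run of 3 units at -36 to -24 and a run of 2 units at -105 to -98. The Hspa8 window holds 2 runs of 3 units, at -213 to -201 and at -55 to -43. The run between Hspd1 and Hspe1 has 4 units, at -65 to -48 from the Hspe1 start and at -242 to -225 from the Hspd1 start. Hspb1 has 2 runs of 2 units, Dnajb1 has 1 such run at -11 to -4, and the Hsp90ab1 window has no match to these letters. A match is a description of the letters and not a measured binding site.

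**Figure D1:**
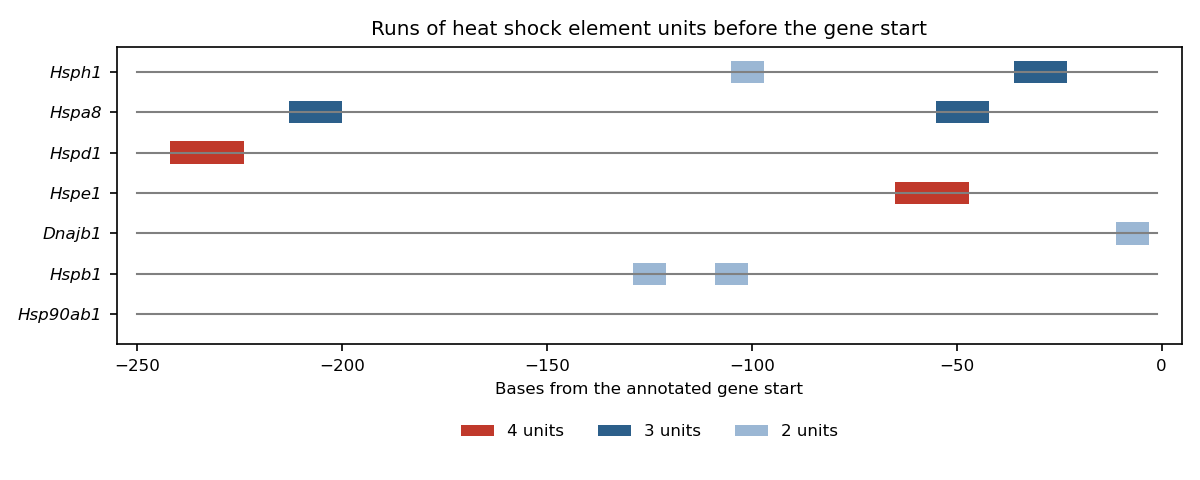
Runs of heat shock element units in the 250 bases before the annotated start of 7 genes (horizontal axis, bases from the start, RefSeq GRCr8); each bar is 1 run and its colour gives the number of units. Hspd1 and Hspe1 show the same run of 4 units read from either side, and Hsp90ab1 has none.

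The libraries held 14951463 to 18074590 counts each (median 16069831). Markers of lung epithelium, endothelium and mesenchyme were present in every library, with 78817 to 546783 counts of the surfactant gene Sftpc, except Cldn5, which had 0 counts throughout. Genes known to rise in oxygen-exposed rodent lung went against the treatment labels: of 9 tested, 8 were lower in the 85%-labelled lungs at day 14 and 7 at day 10, among them haem oxygenase, Hmox1 (log2 fold change -2.25 at day 14). At days 3 and 7 only 1 each was called, lower, and at day 1 the list went both ways, with 2 higher and 4 lower. Groups are therefore called 85%-labelled and 21%-labelled, and every direction below rests on the labels as they stand. The share of counts from mitochondrially encoded genes ranged from 2.65% to 19.1%, and it was above 6% in 4 libraries. Those were 85%-labelled replicates 1 and 3 of day 1 and replicate 3 of each arm at day 3. A fit without them keeps only replicate 2 in the 85%-labelled day 1 group, so its comparisons with that group are given as sizes only.

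At day 14 the heat shock genes were lower in the 85%-labelled lungs. Of the 8 genes, 6 were called lower and none higher, where a call needs an adjusted p under 0.05 and a log2 difference of at least 0.5 (85%-labelled minus 21%-labelled, edgeR's quasi-likelihood test with Benjamini-Hochberg adjustment over all genes tested, used for every adjusted p here). Over all genes tested, 10.8% were called lower and 10.5% higher at this day, and higher genes made up 49.3% of the calls, or 60.6% with scaling by library totals alone. The median log2 difference of the 8 genes was -0.85, against 0.0096 over all genes. Their summed level was 1665, 1679 and 1740.2 CPM (counts scaled to library size, TMM-normalised) in the 3 85%-labelled libraries and 2914, 2693 and 2850.4 CPM in the 3 21%-labelled libraries. At the 4 earlier days that sum lay between 2013 and 3053 CPM in the 85%-labelled libraries and between 2485 and 2896 CPM in the 21%-labelled libraries. The 85%-labelled day 14 libraries thus had the 3 lowest sums of the 30. In 7 of the 8 genes every 85%-labelled library of day 14 lay below every 21%-labelled one, as was the case in 25.1% of all genes tested, and in none did every 85%-labelled library lie above. In tissue samples such as these, fewer cells of a type and less RNA per cell cannot be told apart.

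**Figure D2:**
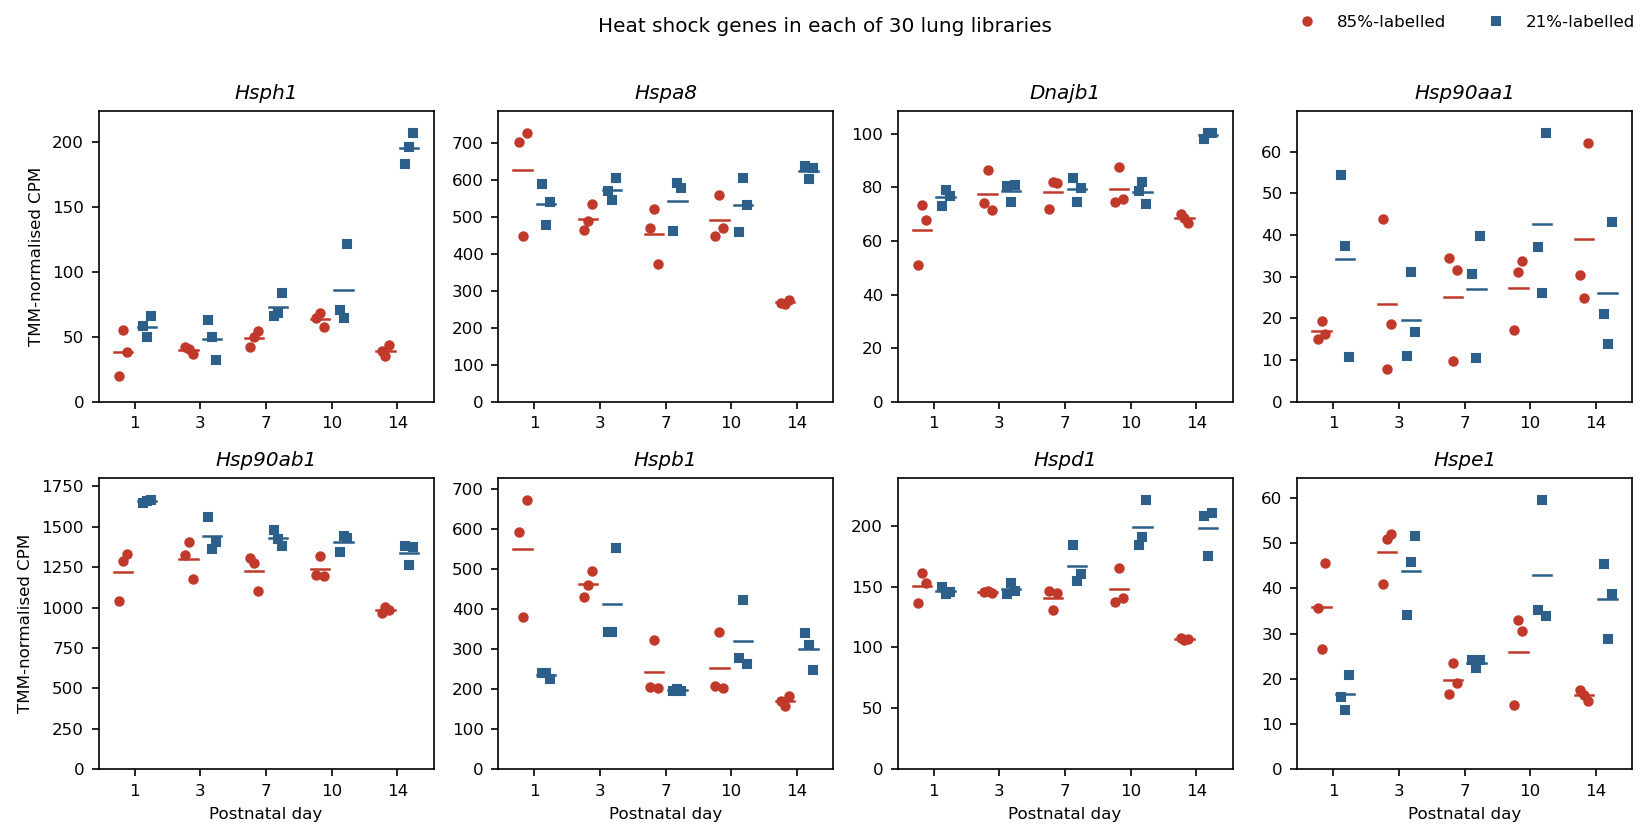
Level of each heat shock gene in each library (vertical axis, TMM-normalised CPM, from 0) by postnatal day (horizontal axis); points are libraries, with 85%-labelled circles left of 21%-labelled squares, and lines are group means. At day 14 the circles lie below the squares without overlap in each panel but that of Hsp90aa1, and by most for Hsph1 (35.4 to 44.0 against 184 to 207 CPM).

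The largest of the day 14 differences was that of Hsph1, a gene of the cytosolic Hsp70 system. Hsph1 encodes an Hsp110 protein, which exchanges the nucleotide of Hsp70 and holds unfolded clients (ENSRNOG00000000902, chromosome 12, 6322668 to 6341902, in the coordinates of the deposited table, for which the sources used here name no rat build). At day 14 it stood at 39.2, 35.4 and 44.0 CPM in the 85%-labelled libraries and at 184, 197 and 207 CPM in the 21%-labelled libraries. The groups were far apart, the 85%-labelled mean being 0.202 times the 21%-labelled one, and the log2 difference was -2.31 (SE 0.27, adjusted p = 1.02e-06). In the 21%-labelled arm the Hsph1 means of days 1, 3, 7 and 10 lay between 48.6 and 85.8 CPM and the day 14 mean was 196 ± 11.9 CPM (SD, n = 3), while the 85%-labelled means lay between 38.1 and 63.7 CPM over the 5 days. Between day 14 and day 1 Hsph1 was higher by 1.75 in the 21%-labelled arm (log2, SE 0.27, adjusted p = 3.1e-05) and differed by 0.05 in the 85%-labelled arm (SE 0.26, adjusted p = 0.881). The difference between the arms changed between days (F test, adjusted p = 0.00132). At day 1 it was -0.60 (adjusted p = 0.0607), and it was called there without 85%-labelled replicate 2 (-1.01, adjusted p = 0.00304), with DESeq2 (-0.64, adjusted p = 0.0387), with DESeq2-type size factors in edgeR (-0.64, adjusted p = 0.0478) and with scaling by library totals alone (-0.78, adjusted p = 0.0408). With the mitochondrially encoded share as a covariate the day 1 difference of Hsph1 turned to 0.32 (adjusted p = 0.602). Without the 4 libraries above 6%, which left only replicate 2 in the 85%-labelled group, it was -0.052. With the covariate its change between day 14 and day 1 in the 85%-labelled arm was -0.90 (adjusted p = 0.0314).

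Hspa8 encodes Hsc70, the Hsp70 that cells make without stress (ENSRNOG00000034066, chromosome 8, 44990014 to 44993179). It stood at 266, 265 and 276 CPM in the 85%-labelled and at 637, 602 and 630.5 CPM in the 21%-labelled libraries of day 14. The libraries within each group were close and the groups well apart (log2 difference -1.21, SE 0.16, adjusted p = 3.49e-06). In the 85%-labelled arm the mean was 269 ± 6.18 CPM at day 14, against 455 to 626 CPM at the earlier days, while the 21%-labelled means lay between 532 and 623 CPM over the 5 days. Hspa8 was lower at day 14 than at day 1 in the 85%-labelled arm by -1.22 (log2, adjusted p = 6.84e-06), and in the 21%-labelled arm the same difference was 0.22 (adjusted p = 0.335). In the 85%-labelled arm it was -0.73 (adjusted p = 0.0178) with the mitochondrial share as a covariate. It was -0.74 without the 4 libraries above 6%, which left only replicate 2 at day 1 in this arm.

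Dnajb1 encodes the main stress-inducible J protein, which hands clients to Hsp70 (ENSRNOG00000021824, chromosome 19, 24747178 to 24750919). At day 14 it had 69.97, 68.6 and 66.6 CPM in the 85%-labelled and 98.1, 100.2 and 100.4 CPM in the 21%-labelled libraries. The groups did not overlap, and the log2 difference of -0.54 (SE 0.11, adjusted p = 0.000604) was just past the size limit of 0.5. With scaling by library totals alone it was -0.45 (adjusted p = 0.0185) and not called. At days 3, 7 and 10 the differences were -0.02, -0.02 and 0.02, with overlapping libraries. Over time the level changed in the 21%-labelled arm (F test, adjusted p = 0.0178), where day 14 held the 3 highest values of that arm, and did not pass the test in the 85%-labelled arm (adjusted p = 0.0502).

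Neither of the 2 cytosolic Hsp90 genes was called at day 14. Hsp90ab1, the constitutive Hsp90, had the highest median level per length of the 8 genes (ENSRNOG00000019834, chromosome 9, 17817721 to 17823243). It stood at 965, 1005 and 986 CPM in the 85%-labelled and at 1379.7, 1266 and 1372 CPM in the 21%-labelled libraries of day 14. The groups were apart, with a log2 difference of -0.44 (SE 0.10, adjusted p = 0.00278), which is under the size limit and so not called. Without 21%-labelled replicate 2 it was -0.51 and called. The same size was seen at day 1 (-0.44, adjusted p = 0.00211), where it was -0.51 and called without 85%-labelled replicate 2 or 3, and -0.66 and called with scaling by library totals alone. With the mitochondrial share as a covariate the day 1 difference of Hsp90ab1 was -0.25 (adjusted p = 0.447). Without the 4 libraries above 6%, which left only replicate 2 in the 85%-labelled group, it was -0.35. The Hsp90ab1 libraries did not overlap at days 1, 7, 10 and 14, the 85%-labelled ones being below each time. This was so in 27.1%, 16.6%, 8.17% and 25.1% of all genes tested at those days. The mean difference of Hsp90ab1 over the days was -0.29 (SE 0.05, adjusted p = 0.000124), again under the size limit. Whether its difference changed between days was tested and did not pass (adjusted p = 0.214).

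Hsp90aa1, the stress-inducible Hsp90, was the most variable of the 8 (ENSRNOG00000059714, chromosome 6, 135107271 to 135112775). It had 30.4, 24.9 and 61.9 CPM in the 85%-labelled and 21.1, 13.9 and 43.1 CPM in the 21%-labelled libraries of day 14. The ranges overlapped, and the log2 difference of 0.59 (SE 0.62) had an adjusted p of 0.542. Within groups its log2 level had an SD of 0.864, which 7.65% of the tested genes exceeded, and libraries of 1 group differed by up to 5.55 times. None of the comparisons of arms or days called Hsp90aa1 in the fit of the 30 libraries, where the SE was 0.62 to 0.63 at each day. A fit of the 6 libraries of day 14 with the replicate number as a block called it higher (0.64, adjusted p = 0.0172). Over all genes, same-numbered libraries of that day correlated at -0.25 to -0.057 as deviations from their group means.

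Hspb1 encodes Hsp27, the small heat shock protein that binds actin and keeps unfolded proteins soluble (ENSRNOG00000023546, chromosome 12, 23839399 to 23841049). At day 14 it stood at 169.8, 157 and 183 CPM in the 85%-labelled and at 340.2, 310.4 and 248 CPM in the 21%-labelled libraries. The groups did not overlap (log2 difference -0.82, SE 0.24, adjusted p = 0.0128). Without 21%-labelled replicate 1 the difference was -0.70 and no longer called (adjusted p = 0.0625). In the 85%-labelled arm Hspb1 was lower at day 14 than at day 1 by -1.69 (log2, SE 0.24, adjusted p = 1.76e-05), and in the 21%-labelled arm the difference was 0.35 (adjusted p = 0.313). The 85%-labelled libraries of day 1 include those with the highest mitochondrial share. With that share as a covariate the change of Hspb1 in this arm was -1.02 (adjusted p = 0.0306). Without the 4 libraries above 6%, which left only replicate 2 at day 1 in this arm, it was -1.16.

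Both genes of the mitochondrial pair were called lower. Hspd1 encodes Hsp60, the barrel of the matrix chaperonin (ENSRNOG00000014525, chromosome 9, 61680530 to 61690956), and Hspe1 encodes its lid, Hsp10 (ENSRNOG00000051624, chromosome 9, 61692154 to 61694599). Hspd1 had 107.5, 106.5 and 106.9 CPM in the 85%-labelled and 208, 176 and 210.4 CPM in the 21%-labelled libraries of day 14. The 85%-labelled values were nearly equal, and the log2 difference was -0.89 (SE 0.10, adjusted p = 4.4e-07). Hspe1 had 17.6, 16.4 and 15.1 CPM in the 85%-labelled and 45.5, 28.7 and 38.8 CPM in the 21%-labelled libraries, again without overlap (-1.20, SE 0.27, adjusted p = 0.00196). For Hspd1 the differences of days 1, 3, 7, 10 and 14 were 0.04, -0.02, -0.24, -0.43 and -0.89, close to 0 at days 1 and 3 and further below 0 at each later day. At day 10 its libraries did not overlap, at 137, 166 and 141 CPM in the 85%-labelled and 184, 191 and 221 CPM in the 21%-labelled lungs. The 85%-labelled libraries lay below in this way in 8.17% of all genes tested at that day. The adjusted p of Hspd1 there was 0.0145 and the size was under the limit. Without 85%-labelled replicate 2 of that day Hspd1 was called (-0.51, adjusted p = 0.0105). Hspe1 differed by -0.72 at day 10 (SE 0.27, adjusted p = 0.159), also without overlap.

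At day 1 the 2 of these 8 genes with the shortest deposited lengths were higher in the 85%-labelled lungs. Of the 8 genes, Hspb1 and Hspe1 were called higher and none lower, against 20.6% of all genes tested called higher and 20.8% called lower (49.8% of calls higher, or 31.5% with scaling by library totals alone). The count of 2 in 8 is near that background. Hspb1 had 593, 381 and 673 CPM in the 85%-labelled and 240.2, 241 and 224 CPM in the 21%-labelled libraries (log2 difference 1.22, SE 0.24, adjusted p = 0.000739). Hspe1 had 35.6, 26.6 and 45.6 CPM in the 85%-labelled and 15.9, 13.2 and 20.7 CPM in the 21%-labelled libraries (1.11, SE 0.27, adjusted p = 0.00259). The groups overlapped for neither gene, the 85%-labelled libraries lying above, as they did in 26% of all genes tested. The mitochondrially encoded share moved with these groups: it was 19.1%, 5.32% and 11.5% in the 85%-labelled and 3.03%, 2.71% and 2.94% in the 21%-labelled libraries. With that share as a covariate Hspb1 differed by 0.56 (adjusted p = 0.416) and Hspe1 by 0.65 (adjusted p = 0.457), and neither was called. Over all genes the calls fell from 7278 to 27 in that fit, which cannot tell the share from the arm at this day. Without the 4 libraries above 6% only replicate 2 was left in the 85%-labelled group, and Hspb1 and Hspe1 differed by 0.71 and 0.69. At day 14 the share was 2.77%, 2.69% and 2.74% in the 85%-labelled and 3.58%, 3.33% and 3.77% in the 21%-labelled libraries. With the covariate the 6 genes kept their calls at that day, with log2 differences from -2.40 for Hsph1 to -0.57 for Dnajb1.

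These 2 genes and Hspa8 were also higher where the mitochondrial share was higher among libraries of 1 group, and Hsph1 was lower. As a description over the 30 libraries, taken as deviations from the group means, the correlation of log2 level with log2 mitochondrial share was 0.75 for Hspb1, 0.53 for Hspe1 and 0.74 for Hspa8, and -0.75 for Hsph1. The rank correlation of level with gene length within a library, which ranged from 0.225 to 0.399, moved with them: its within-group correlation was -0.78 with Hspb1, -0.85 with Hspe1, -0.66 with Hspa8 and 0.53 with Hsph1. The deposited lengths are 879 bases for Hspb1 and 267 bases for Hspe1, and 1938 to 3446 bases for the other 6 genes. These points share their library, so that level, length trend and mitochondrial share come from the same counts. The part of either measure in the differences between the arms was not tested. The covariate above cannot tell the mitochondrial share from the arm, since the shares of the arms did not overlap at day 1 or at day 14.

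**Figure D3:**
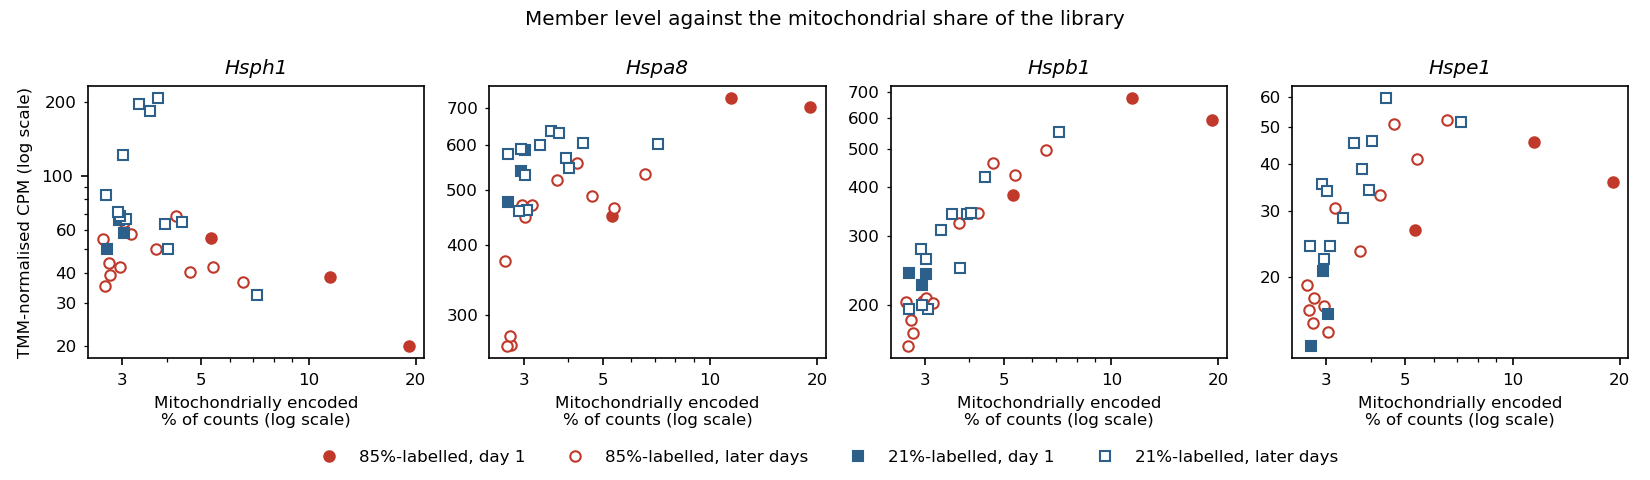
Level of 4 heat shock genes (vertical axis, TMM-normalised CPM, log scale) against the mitochondrially encoded percent of counts (horizontal axis, log scale) in 30 libraries; red circles are 85%-labelled, blue squares 21%-labelled, and filled symbols are day 1. Hspb1 and Hspe1 are high where the mitochondrial share is high, and the 85%-labelled day 1 libraries hold shares of 19.1%, 5.32% and 11.5%.

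Between these days no heat shock gene was called. At day 3 the log2 differences ran from -0.29 for Hsph1 to 0.26 for Hsp90aa1, and 0 of 8 genes were called, against 0.313% of all genes called higher and 0.0797% called lower. At day 7 they ran from -0.56 for Hsph1 to 0.31 for Hspb1, and 0 of 8 were called, against 0.0341% called higher and 0.0512% called lower. At day 10 they ran from -0.72 for Hspe1 to 0.02 for Dnajb1, and 0 of 8 were called, against 1.75% called higher and 1.18% called lower. At an unadjusted p under 0.05, over all genes, the counts were 1311, 2976 and 2688 at these 3 days. Hsph1 was the gene with the lower 85%-labelled mean at each of the 5 days, together with Hsp90ab1. At day 7 the Hsph1 libraries did not overlap, at 42.4, 50.3 and 54.8 CPM in the 85%-labelled and 66.3, 68.3 and 83.7 CPM in the 21%-labelled lungs (adjusted p = 0.282). At that day every 85%-labelled library lay below in 3 of the 8 genes and above in 1, Hspb1, against 16.6% and 10.6% of all genes tested. At day 10 every 85%-labelled library lay below in 3 genes (Hsp90ab1, Hspd1 and Hspe1) and above in none, against 8.17% and 9.86%. At day 3 this was so in 1 gene (Hspa8, below) and none above, against 5.81% and 6.99%.

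**Figure D4:**
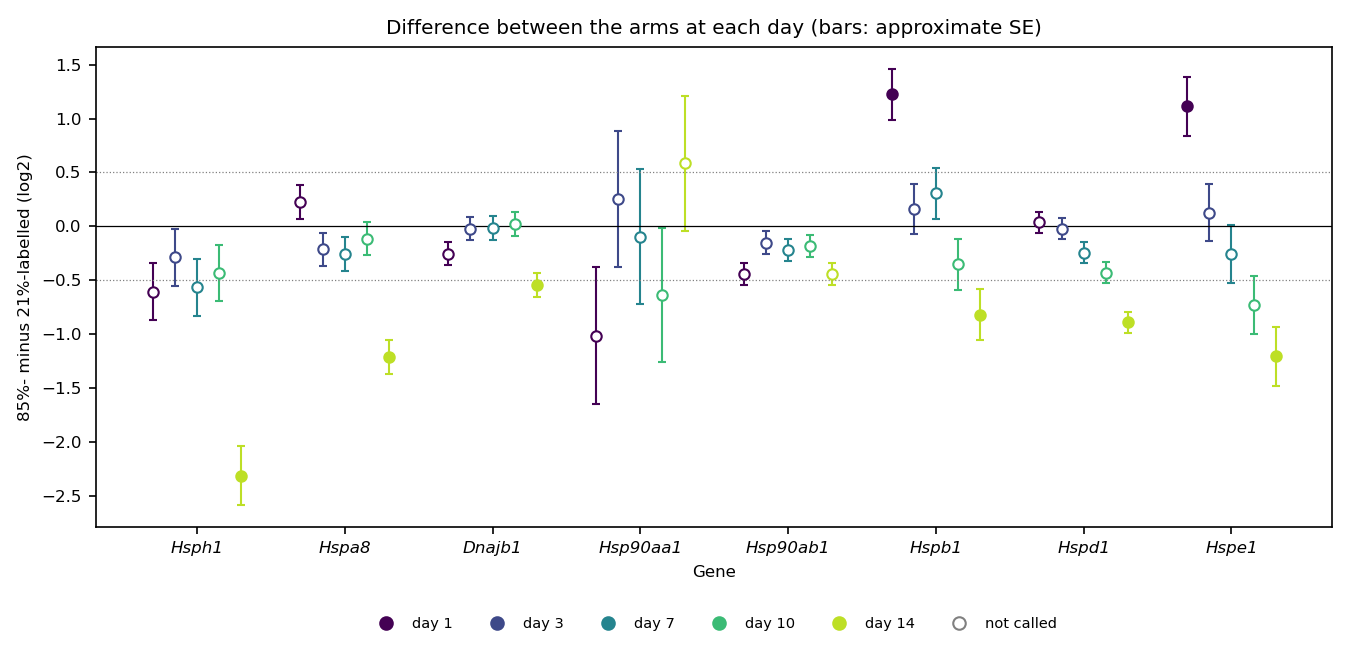
Log2 fold change of each heat shock gene (vertical axis, 85%-labelled minus 21%-labelled) at each day (colours), with the approximate SE as bars; filled points were called and dotted lines mark the size limit of 0.5. Called points are the day 14 values of 6 genes, all below 0, and the day 1 values of Hspb1 and Hspe1, both above 0.

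Taken as the mean of the 5 daily differences, Hsph1 was called lower (-0.84, SE 0.12, adjusted p = 2.2e-05) and none of the 8 higher, against 6.99% of all genes called lower and 6.32% called higher. The difference changed between days for 6 of the 8 genes, against 37.6% of all genes tested. These were the 6 genes called at day 14, with adjusted p from 0.000191 for Hspd1 to 0.0198 for Dnajb1. Over the days the level changed in 5 of 8 genes in the 85%-labelled arm, against 58.9% of all genes: Hspa8, Hsp90ab1, Hspb1, Hspd1 and Hspe1. In the 21%-labelled arm it also changed in 5 of 8, against 56.3%: Hsph1, Dnajb1, Hspb1, Hspd1 and Hspe1. Both shares are near the background.

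The first and last days show that the arms moved in opposite directions for Hspe1. Day 14 was below day 1 by -1.14 in the 85%-labelled arm (log2, SE 0.27, adjusted p = 0.00127) and above it by 1.18 in the 21%-labelled arm (SE 0.27, adjusted p = 0.00258). In the 85%-labelled arm 3 of 8 genes were lower at day 14 than at day 1 (Hspa8, Hspb1 and Hspe1) and none higher, against 26% of all genes lower and 25.1% higher. In the 21%-labelled arm 2 of 8 were higher (Hsph1 and Hspe1) and none lower, against 9.04% higher and 10.1% lower. Hspd1 moved the same way below the size limit, by -0.49 in the 85%-labelled arm (adjusted p = 0.000291) and by 0.44 in the 21%-labelled arm (adjusted p = 0.00206). It was called without 85%-labelled replicate 1 of day 1 (-0.55) and without 21%-labelled replicate 2 of day 14 (0.54). The day 1 libraries of the 85%-labelled arm are those with the high mitochondrial share. With that share as a covariate Hspe1 was no longer called in this arm (-0.67, adjusted p = 0.252), while Hsph1 (-0.90, adjusted p = 0.0314), Hsp90ab1 (-0.50) and Hspd1 (-0.63) were, which made 5 of 8. Over all 17571 genes that fit called 1693 in either direction, in place of 8981.

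Per length, on the authors' deposited FPKM, the median level over the 30 libraries was 493 for Hsp90ab1, 304 for Hspb1, 269.6 for Hspa8, 112 for Hspe1, 65.5 for Hspd1, 33.9 for Dnajb1, 16.2 for Hsph1 and 10.2 for Hsp90aa1. The constitutive Hsp90 gene and the small heat shock gene thus stood highest and the inducible Hsp90 gene lowest. The steadiest were Hsp90ab1, Hspd1 and Dnajb1, with within-group SDs of 0.10, 0.104 and 0.121 on the log2 scale, which 96% or more of the tested genes exceeded, against a median SD of 0.33 over all genes. Hspa8 had an SD of 0.19, Hspb1 of 0.299, Hsph1 of 0.345 and Hspe1 of 0.35.

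The 8 genes were loosely correlated with each other. Over the 30 libraries, which share their depth and scaling, Pearson's r of log2 CPM among the 28 pairs had a median of 0.224 and was positive in 21. It ran from -0.388 for Hsp90aa1 and Hspb1 to 0.783 for Hspb1 and Hspe1, with 0.782 for Hsph1 and Dnajb1. As deviations from the group means the median was 0.108, the range was -0.464 to 0.712, and 17 pairs were positive. The mean of the 8 standardised log2 levels was -1.37 to -1.11 in the 85%-labelled day 14 libraries and 0.593 to 1.09 in the 21%-labelled ones.

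Genes whose log2 level over the 30 libraries was most like that mean were Basp1 (Pearson's r = 0.909), Stip1 (0.9), Hspa5 (0.889), Htatip2 (0.883), Atxn10 (0.878), Glrx3 (0.877), Pdia4 (0.873), Cd63 (0.871), Rps27l (0.869) and AABR07070043.1 (0.862). Stip1 encodes the adaptor that joins Hsp70 to Hsp90, and Hspa5 and Pdia4 encode chaperones of the endoplasmic reticulum. By Spearman's measure 5 of these 10 remained among the top 10, and on deviations from the group means only Rps27l did. Taken singly, the gene most like each was Chek1 for Hsph1 (r = 0.927), Dnajc22 for Hspa8 (0.849), Rufy1 for Dnajb1 (0.867), LOC102555083 for Hsp90aa1 (0.644), Psat1 for Hsp90ab1 (0.82), Krtcap2 for Hspb1 (0.965), Cct6a for Hspd1 (0.924) and Atp5mc1 for Hspe1 (0.941).

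Many partners of these chaperones were also lower at day 14. Of 66 genes in 8 companion lists 65 were tested, and 25 were called lower and 2 higher, with a median log2 difference of -0.47, beside the 10.8% lower and 10.5% higher of all genes. At the other days the counts were 19 higher and 7 lower at day 1, beside 20.6% higher and 20.8% lower of all genes, none at day 3, 1 lower at day 7 (Hspa4, -0.53) and 1 higher at day 10 (Hspa12b, 0.65). Of 12 Hsp90 cochaperones 7 were lower and none higher (median -0.53): Stip1 (-1.01, adjusted p = 2.58e-06), the immunophilins Fkbp4 (-0.80) and Fkbp5 (-1.16) and the cochaperone p23, Ptges3 (-0.72), had the smallest p. Of 8 Hsp70 cochaperones 5 were lower (median -0.60), including the Bag-domain exchange factors Bag2 (-1.56), Bag5 (-1.81) and Bag3 (-0.61, adjusted p = 0.0161) and the inhibitor Hspbp1 (-0.60). Of 8 subunits of TRiC, the cytosolic chaperonin that folds actin and tubulin, 5 were lower (median -0.55), such as Cct6a (-0.72), Cct3 (-0.58) and Cct7 (-0.68).

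Of 10 other cytosolic J proteins 2 were lower, Dnaja1 (-0.68) and Dnajb4 (-0.70), and none higher (median -0.29). Of 9 other Hsp70 genes tested 2 were lower, the Hsp110 relative Hspa4 (-0.84) and the stress-inducible Hspa1b (-2.05, SE 0.41, adjusted p = 0.000581), and 1 was higher, the endothelial Hspa12b (0.98). Of 8 mitochondrial chaperones and proteases 3 were lower: the mitochondrial Hsp90, Trap1 (-0.59), the protease subunit Clpp (-0.70) and the J protein Dnaja3 (-0.59). The mitochondrial Hsp70, Hspa9, stood at -0.72 and did not pass (adjusted p = 0.172). None of 6 other small heat shock genes passed the test (median -0.04). Hsf1, the main heat shock factor, was lower (-0.59, SE 0.16, adjusted p = 0.0092) and Hsf4 was higher (1.37, SE 0.36, adjusted p = 0.00677). Hsf2 (0.09) and the factor-binding Hsbp1 (0.06) did not pass. At day 1, where the mitochondrial share moved with the arms, these 4 genes were all called higher, beside 20.6% of all genes. Hsf1 stood at 0.67 there (adjusted p = 0.00236). Of 11 chaperones of the endoplasmic reticulum 9 were lower and none higher, with a median of -0.96.

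**Figure D5:**
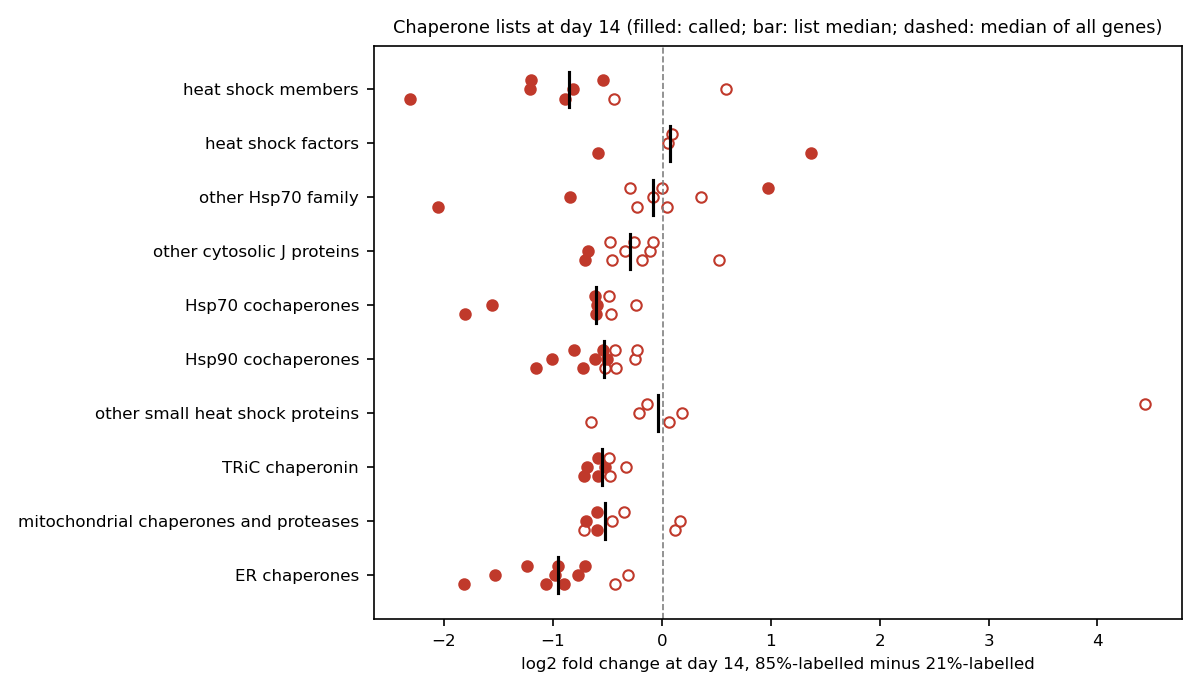
Log2 fold change at day 14 (horizontal axis, 85%-labelled minus 21%-labelled) of the genes in 10 chaperone lists (rows); each circle is a gene, filled where called, black bars are list medians and the dashed line is the median of all genes (0.0096). The heat shock genes (median -0.85) and the endoplasmic reticulum chaperones (-0.96) lie lowest, and the other small heat shock genes (-0.04) lie at the line.

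Among the genes with a single start-site window, those with 3 or more units were looked at in the same way, leaving out the 8. Genes with several windows were not included. Of 39 such tested genes 9 (23.1%) were lower and 5 (12.8%) higher at day 14, against 12.6% lower and 10% higher of 10425 tested genes with a single window. Their median log2 difference was -0.05 against -0.03. None of 53 companion genes with a single window had 3 units, and 14 had 2.

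Other groups of genes moved at day 14 as well, and their part in the result was not tested. Immediate early genes, which respond within minutes to stimulation and tissue handling, were lower in 11 of 15 cases and higher in none, led by Egr1 (-3.47). Their summed level was 770 to 990 CPM in the 85%-labelled and 1663 to 2426 CPM in the 21%-labelled libraries. At day 10, 8 of 15 were lower and none higher, beside 1.18% lower and 1.75% higher of all genes. Of 7 lung epithelium markers tested 2 were lower and none higher, with sums of 13920 to 14470 CPM in the 85%-labelled and 19520 to 24660 CPM in the 21%-labelled libraries. The rank correlation of level with gene length also did not overlap at day 14: the 85%-labelled libraries lay at 0.382 to 0.3995, the 21%-labelled ones at 0.319 to 0.3645. Of 8 macrophage markers 7 were lower, with a sum of 326 to 360.4 CPM in the 85%-labelled and 672 to 939 CPM in the 21%-labelled libraries. The 4 endothelial markers tested were all higher, with sums of 2279 to 2617 CPM in the 85%-labelled and 632 to 866 CPM in the 21%-labelled libraries. Of 6 cardiac muscle markers 5 were higher, with sums of 64.3 to 615 CPM in the 85%-labelled and 4.71 to 22.7 CPM in the 21%-labelled libraries. Of 10 cell division genes 4 were lower at day 14, with sums of 315 to 409.6 CPM in the 85%-labelled and 457 to 616 CPM in the 21%-labelled libraries, while 8 were higher at day 1. Of the cold-inducible genes, Cirbp was higher at day 14 (1.11, adjusted p = 0.000168), and Rbm3 was not called (0.13).

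Some of the genes have other rows of similar description in the table. Rows described as similar to Hspa8 had counts of their own equal to 7.62%, 1.41% and 0.148% of those of Hspa8. They stood at log2 differences of -0.98, -1.19 and -1.16 at day 14, close to the -1.21 of Hspa8. For Hsp90aa1, which was not called, 1 row is described as similar to Hsp90 alpha and 1 by the name of Hsp90 alpha itself. Their own counts equalled 10.5% and 3.42% of those of Hsp90aa1, and they stood at -0.87 and -1.46. The sources used here do not say how reads shared between such rows were counted, so the separate values of these rows are uncertain. In the authors' deposited table, which gives the 21%-labelled over the 85%-labelled group, 6 of the 8 genes passed an adjusted p of 0.05 and a size of 0.5 at day 14, all 6 with a positive value, against 10.3% of the 22114 genes with an adjusted p there. At day 1 the authors' deposited table had 2 of the 8, both with a negative value, against 12.1% of 21962 genes. At days 3, 7 and 10 it had 0, against shares of 0.229%, 1.06% and 0.728% of all genes with a positive value and 0.622%, 0.673% and 1.16% with a negative one.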

How the data were processed

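RNA was measured in 30 rat lung libraries, made with the SMARTER mRNA-Seq kit from RNeasy extracts, per the labels' protocols. The deposited table holds counts per gene, FPKM values, and the authors' log2 fold changes and adjusted p-values. The counts are whole numbers as the authors deposited them. The FPKM values are the authors' deposited counts per gene length and library size, and were used only to set levels of different genes side by side. The authors' deposited log2 values run as the 21%-labelled over the 85%-labelled group between arms, and as day 14 over day 1 within an arm. They and their p-values were copied, not used in tests. For the aligner, counter, annotation and rat build, nothing is given in the sources used here. GRCm38 and mm10, both mouse, are the builds listed in the submitters' processing notes, while 32883 gene IDs are rat Ensembl IDs, so coordinates are those of the table. Another 2341 rows have other IDs. Between libraries of 1 group the chi-square per degree of freedom was 7.10 to 222 (30 pairs), where sampling noise alone gives about 1, so none was counted as a duplicate.

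Samples were grouped by the treatment and time labels. Counts were fitted with edgeR 4.0.16 in R 4.3.3 (filterByExpr, TMM, robust quasi-likelihood, 1 mean per group, 20 residual degrees of freedom), with Benjamini-Hochberg adjusted p-values over the 17571 genes tested. The SE, an approximation, is the size of the log2 fold change over the square root of F. The steps were tested on simulated counts. Genes named are the 8, up to 4 per companion list by p, Hsf1, Hspa1b and Bag3, the 10 genes most like the mean of the 8 and the gene most like each; other genes were named after their values were seen. The members, lists and tests were chosen with earlier results of these data known. Hspa1a was not analysed here. Alternatives were DESeq2 1.42.0, other scaling and filters, the mitochondrial share as a covariate, fits by day, a replicate block and leaving out each library. Promoter windows and letters were read from RefSeq GRCr8 start-site sequences with Python 3.11.15.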

Additional observations from a re-analysis of the deposited data

Results flagged for a closer look

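The difference between the arms changed between days, by the F test of edgeR's quasi-likelihood fit, for 6 of the 8 heat shock genes, against 37.6% of all genes tested. Groups of 3 libraries are too small to examine single libraries in this way. Hspd1 (adjusted p = 0.000191) had log2 differences of 0.04 at day 1 and -0.89 at day 14. Hspa8 (adjusted p = 0.000536) had 0.23 at day 1 and -1.21 at day 14. Hspe1 (adjusted p = 0.000976) and Hspb1 (adjusted p = 0.000997) were called in opposite directions, at 1.11 and 1.22 at day 1 and at -1.20 and -0.82 at day 14, and the day 1 calls were lost with the mitochondrial share as a covariate. Hsph1 (adjusted p = 0.00132) was at -0.60 at day 1 and -2.31 at day 14. Its day 1 value was 0.32 with the covariate, which cannot tell the share from the arm at that day. It was -0.052 without the 4 libraries above 6% mitochondrial counts, which left only replicate 2 in the 85%-labelled day 1 group. Dnajb1 (adjusted p = 0.0198) had -0.25 at day 1, -0.54 at day 14, and -0.02, -0.02 and 0.02 at days 3, 7 and 10.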

How the results depend on the processing

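At day 14 the count of 6 lower genes held with each alternative fit of the 30 libraries except scaling by totals (5), and it was 5 to 7 when single libraries were left out. At day 1 the 2 genes called became 4 with scaling by totals, 0 with the mitochondrial share as a covariate, and 2 to 4 with single libraries left out. No count is given without the 4 libraries above 6%, since that fit keeps only replicate 2 in the 85%-labelled day 1 group. At day 10 leaving out libraries gave 0 to 1. Between day 14 and day 1 of the 85%-labelled arm the covariate gave 5 in place of 3. Whether replicate numbers pair the libraries is not given by the labels. Of 15 same-numbered pairs 8 correlated above 0.1, among them all 3 of day 3 and none of day 14, and 9 correlated best with their own number. The replicate block left 2 calls at day 1, 0 at day 3 and 6 at day 14. With the 6 libraries of day 14 alone the block called Hsp90aa1 higher (0.64).

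Of the fold changes of single genes, 1109 kept direction and call, 8 lost and 15 gained a call, and 36 changed sign, 35 of them called in neither fit. With the covariate these were Hsph1 0.32, Hspa8 -0.25 and Dnajb1 0.026 at day 1, Hspb1 -0.023 for the mean, and Hsph1 -0.90 and Dnajb1 -0.19 for day 14 minus day 1 in the 85%-labelled arm. Without libraries above 6% they were Hspa8 -0.24 at day 1, Dnajb1 0.038 at day 3 and 0.022 at day 7, and Hsph1 -0.49 and Dnajb1 -0.10 for that arm. Scaling by totals gave Hspa8 -0.029 and Hspd1 -0.18 at day 1 and Dnajb1 0.011 at day 7. The 6 libraries of day 7 gave Dnajb1 0.0062, and 0.0052 with the block. Leaving out libraries gave Hspd1 -0.049 to 0.11 at day 1, Hsp90aa1 -0.56 to 0.74, Hspe1 -0.031 to 0.26 and Dnajb1 -0.11 to 0.036 at day 3, Hsp90aa1 -0.43 to 0.35 and Dnajb1 -0.022 to 0.071 at day 7, Dnajb1 -0.051 to 0.077 at day 10, Hsph1 -0.25 to 0.46 and Dnajb1 -0.040 to 0.24 for the 85%-labelled arm, and Hsp90aa1 -0.94 to 0.14 for the 21%-labelled arm. The causes were not tested.

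Counts over all genes moved more. At day 1 the 7278 calls became 27 with the covariate, and 4470 and 4556 with the 6 libraries alone and with the block added. At day 3 the 69 became 143 with DESeq2, 6 with the day alone and 119 without libraries above 6%, and 27 to 102 when libraries were left out. At day 7 the 15 became 218 with DESeq2, 83 with the covariate, 42 without libraries above 6%, 8 with no filter or the block, 0 with the day alone and 5 to 761 without single libraries. At day 10 the 515 became 9 with the day alone, 6 with the block added and 170 to 525 without single libraries. With the covariate, the mean gave 1089 (from 2339), the change between days 3421 (from 6613) and day 14 minus day 1 of the 85%-labelled arm 1693 (from 8981). The covariate gave 6702 in place of 10346 for any change in that arm. Scaling by totals moved the median of all genes to -0.19 at day 1, -0.14 at day 3, 0.11 at day 14 and 0.21 for day 14 minus day 1 of the 85%-labelled arm. It also moved the percent of calls that were higher, to 68.2% in place of 79.7% at day 3, 58.3% in place of 40% at day 7 and 63.8% in place of 49.1% for that arm.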

Other observations

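Markers of blood cells also differed between the arms. Of 6 erythroid markers tested, which mark red cell precursors and red cells, 6 were called higher in the 85%-labelled lungs at day 3, with sums of 327 to 609 CPM in the 85%-labelled and 54.2 to 166 CPM in the 21%-labelled libraries, while 1 was called higher at day 1, 3 at day 10 and none at days 7 and 14. Of 6 markers of B and T lymphocytes tested, 5 were called higher at day 1, none at days 3 and 7, 3 at day 10 and 5 at day 14, where their sums were 20.8 to 24.0 CPM in the 85%-labelled and 3.64 to 6.79 CPM in the 21%-labelled libraries. Skeletal muscle markers summed to 1617 CPM in replicate 1 of the 85%-labelled day 10 group, against a group median of 5.84 CPM and 3.40 to 12.6 CPM in the 21%-labelled libraries of that day, and 4 of 6 tested were called higher there. The 8 heat shock genes had a median log2 difference of -0.02 at day 3 and -0.39 at day 10. Of them only Hspd1 was called at either day, and only when 85%-labelled replicate 2 of day 10 was left out. The part of these cells in the differences of the heat shock genes was not tested.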
